A study of Mus musculus with 6 samples.

Results

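Complex I (NADH:ubiquinone oxidoreductase) is the entry point of the mitochondrial respiratory chain: it passes electrons from NADH through a flavin and a chain of iron-sulfur clusters to ubiquinone and pumps protons across the inner membrane. It is an L-shaped assembly with a matrix arm, which carries out the redox chemistry, and a membrane arm, which holds the proton channels. Its most hydrophobic subunits are encoded in mitochondrial DNA and all others in the nucleus, so that the complex is built from both genomes with the help of assembly factors, and neurons depend heavily on it for ATP. The nuclear-encoded complex I genes were taken as a list of 39, made up of 6 core subunits, 9 accessory subunits of the matrix arm, 19 accessory subunits of the membrane arm, the acyl carrier protein and 4 assembly factors. A gene was assigned a locus of the deposited table where the locus and the annotated gene shared at least 0.5 of their union on mm10. By this rule 36 of the 39 genes had a locus, out of 32357 loci in the table, of which 12616 with a mean FPKM of at least 1 served as the background.

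RNA was measured in primary cultures of cerebral cortex from Balb/c mouse embryos at E14.5, whose cells were nucleofected before plating with shRNA plasmids in the pSuperneoGFP backbone. In 2 libraries the shRNA was non-silencing, and in 4 libraries it was directed against Neurod2, a bHLH transcription factor of excitatory cortical neurons, with 2 libraries for each of the shRNAs shNeurod2-1 and shNeurod2-2. Total RNA was collected at 4 days in vitro by the labels and at 5 by the methods, and was read as single ends of 50 bases. The deposited table gives 1 pooled value for each group, in FPKM (fragments per kilobase of transcript, normalised to sequencing yield), so that the libraries, both shRNAs and the spread between replicates cannot be looked at singly. No test between the groups was run on these pooled values, and the read depth behind a value was unknown.

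Neurod2 itself was at 105 FPKM in the non-silencing group and at 60.3 FPKM in the knockdown group, a log2 ratio of -0.80. All 7 neuronal markers had a locus, with Tubb3, a neuronal tubulin, at 839 and 879 FPKM, and their summed level was 1766 and 1885 FPKM in the non-silencing and knockdown groups. In the knockdown group 5 of the 7 were higher, while Rbfox3 (10.8 and 10.1 FPKM) and Tbr1 (35.8 and 34.3 FPKM) were lower. Markers of astrocytes (3 of 4 with a locus) summed to 151 and 132 FPKM, where Gfap was at 57.4 and 35.1 FPKM, Slc1a3 at 87.5 and 90.4 FPKM and Aqp4 at 6.353 and 6.201 FPKM, so that the lower sum came almost wholly from Gfap. The 4 markers of the oligodendrocyte lineage summed to 55.7 and 53.4 FPKM, with Olig2 at 36.9 and 36.9 FPKM, Pdgfra at 10.3 and 8.17 FPKM, Mog at 5.42 and 5.20 FPKM and Mbp at 3.07 and 3.15 FPKM. The 4 fibroblast markers summed to 2.01 and 3.44 FPKM, of which Dcn made up 1.55 and 1.56 FPKM, while the collagens Col1a1 (0.125 and 0.975 FPKM) and Col3a1 (0.171 and 0.765 FPKM) were higher and Lum (0.165 and 0.138 FPKM) lower in the knockdown group, these 3 at a mean below 1 FPKM. The microglial markers (2 of 4 with a locus) were at 0.135 and 0.322 FPKM and endothelial markers at 0.131 and 0.285 FPKM, with Cldn5 and Cdh5 listed at 0 in the non-silencing group. The part that the cell makeup had in the levels below was not tested, and in RNA from whole cultures fewer cells of a type and less RNA per cell cannot be told apart.

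Most complex I genes with a locus were well expressed, 33 of 36 above the median of all loci in the non-silencing group and 34 in the knockdown group, and the groups were close to each other. The lowest value of the 36 genes was 7.91 FPKM and the highest 241 FPKM, with a median of 67.9 FPKM in the non-silencing group and 64.7 FPKM in the knockdown group, against 12.7 and 12.4 FPKM over all loci. None of the 36 genes was 1.5-fold lower in the knockdown group, where 2.09% of all loci and 1.72% of the loci in the members' range of mean FPKM were, and none was 1.5-fold higher, against 1.36% and 0.768%. None was lower by 20% or more either, against 5.60% of all loci and 3.91% of the loci in range, and none was higher by 25% or more, against 4.11% and 1.69%. The gene farthest apart between the groups differed 1.19-fold. In 29 of the 36 genes (80.6%) the knockdown value lay within 10% of the non-silencing value, a share that was 65.3% over all loci and 73.7% over the loci in range.

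The small differences lay below 0 about as often as in the background. The log2 ratio, knockdown over non-silencing, was below 0 in 25 genes and above 0 in 11, which is 69.4% below 0 beside 58.4% of all loci and 62.1% of the loci in range. With the median of all loci subtracted, it was below 0 in 21 of the 36 genes. The median log2 ratio was -0.06, against -0.03 over all loci and -0.04 over the loci in range. The standard deviation over the genes was 0.10, against 0.33 over all loci and 0.33 over the loci in range. The background values take in extreme loci, with ratios from -6.98 to 10.75 over all loci and from -5.08 to 10.75 in range. The lower and upper quartiles were more alike. They were -0.13 and 0.01 over the genes, -0.12 and 0.04 over the loci in range and -0.13 and 0.07 over all loci. Across the 36 genes the levels in both groups had a Pearson r of 0.997 on the log2 scale (Spearman rho 0.995), a description in which all points share the same libraries and transcript models.

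**Figure D1:**
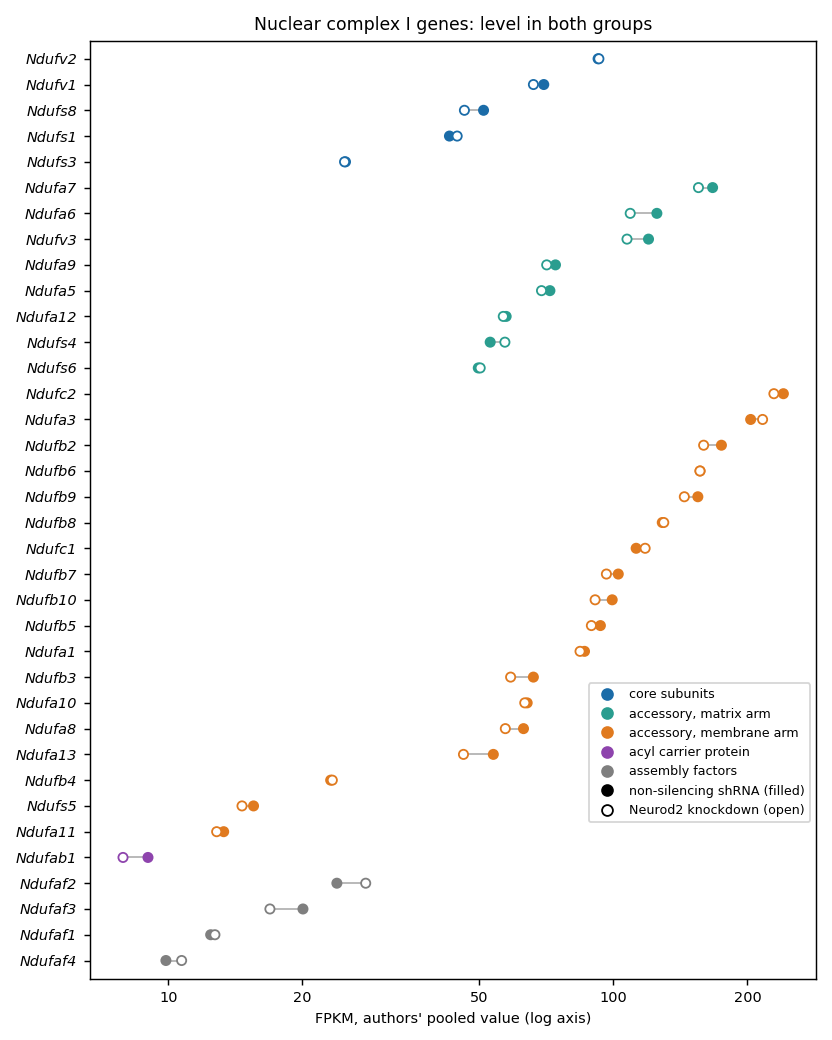
Level of the 36 nuclear complex I genes with a locus, in FPKM on a log axis, by role and in order of level. Filled points are the authors' pooled value of the non-silencing group and open points that of the Neurod2 knockdown group, joined by a line, and no pair lies more than 1.19-fold apart.

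The core subunits carry the flavin and the iron-sulfur clusters. Ndufv1 (chr19:4007384-4012806), which binds NADH and the flavin, was at 69.8 FPKM in the non-silencing group and 66.1 FPKM in the knockdown group. Ndufv2 (chr17:66078638-66101559), its iron-sulfur partner in the NADH-oxidizing module, was the core subunit at the highest level, at 92.4 and 92.8 FPKM. Ndufs1 (chr1:63143596-63176833), the largest subunit and a carrier of several clusters, was at 42.8 and 44.6 FPKM, the highest log2 ratio of the core subunits at 0.06. These genes of the NADH-oxidizing module thus lay on both sides of 0. The table held a second row at the Ndufs1 position, at 1.246 and 1.387 FPKM.

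Downstream of them in the electron path, Ndufs8 (chr19:3908863-3912774), which holds clusters that lead toward ubiquinone, was at 51.1 and 46.3 FPKM, the lowest log2 ratio of the core subunits at -0.14. Ndufs3 (chr2:90894634-90904827), a cluster-free subunit of the ubiquinone-reducing module, had the lowest core level at 25.01 and 24.89 FPKM. Ndufs7, which holds the last cluster before ubiquinone, had no locus by the rule. It lies inside a locus of 672 kb that holds 46 protein-coding genes, Ndufs7 among them, and no level was assigned to it. The core levels spanned 3.69-fold in the non-silencing group and 3.73-fold in the knockdown group.

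Of the accessory subunits of the matrix arm, 8 of 9 had a locus, with levels from 49.7 to 167 FPKM in the non-silencing group and from 50.2 to 155 FPKM in the knockdown group. Ndufa7 was the highest at 167 and 155 FPKM, and Ndufs6, a zinc-binding subunit needed late in assembly, the lowest at 49.7 and 50.2 FPKM. Ndufa6, a LYR-motif protein that anchors an acyl carrier protein, had the lowest log2 ratio at -0.20, from 125 and 109 FPKM. Ndufs4, a late-joining subunit whose loss causes Leigh-like disease, had the highest at 0.11, from 52.9 and 57.1 FPKM. Of the others, Ndufv3 was at 120 and 107 FPKM, Ndufa5 at 72.0 and 68.9 FPKM, Ndufa9, a member of the short-chain dehydrogenase family, at 74.1 and 70.8 FPKM, and Ndufa12 at 57.4 and 56.6 FPKM. In this arm 6 of 8 ratios were below 0. Ndufa2 had no locus by the rule, since the locus that holds it also covers more than 0.5 of the neighbouring gene Tmco6, and its best overlap was 0.234.

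The accessory subunits of the membrane arm, of which 18 of 19 had a locus, held both the highest levels and a wide spread. Ndufc2 was at the highest level of the 36 nuclear genes with a locus, at 241 and 229 FPKM. It was followed by Ndufa3 at 203 and 216 FPKM, which also had the highest log2 ratio of the arm at 0.09. Next came Ndufb2 at 175 and 159 FPKM, Ndufb6 at 157 and 156 FPKM, Ndufb9, another LYR-motif protein, at 155 and 144 FPKM, and Ndufb8 at 129 and 130 FPKM. Ndufc1 was at 112 and 118 FPKM. These abundant transcripts had ratios on both sides of 0.

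At the other end of the arm, Ndufa11 was at 13.3 and 12.8 FPKM, Ndufs5, a cysteine-rich subunit of the intermembrane-space side, at 15.5 and 14.6 FPKM, and Ndufb4 at 23.2 and 23.4 FPKM. The lowest log2 ratio of the arm was that of Ndufa13, also known as GRIM-19, at -0.22, from 53.7 and 46.0 FPKM. The Ndufa13 locus (chr8:69894182-69903518) also holds Tssk6 and more than 0.5 of Yjefn3, and a second row at its position was at 3.68 and 3.18 FPKM. Rows were matched by position alone, so whether the value belongs to Ndufa13 was not determined. The Ndufa10 position was also shared, with a row at 64.0 and 63.2 FPKM and another listed at 0 in both groups. In the middle of the range lay Ndufb7 (103 and 96.4 FPKM), Ndufb10 (99.4 and 91.0 FPKM), Ndufb5 (93.5 and 89.2 FPKM), Ndufa1 (86.1 and 84.1 FPKM), Ndufb3 (66.1 and 58.8 FPKM) and Ndufa8 (62.8 and 57.2 FPKM). In all, 14 of 18 ratios in this arm were below 0. Ndufb11, on the X chromosome, had no locus by the rule, since its transcripts lie in a locus of 35.6 kb shared with Rbm10, and its best overlap was 0.0645.

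Ndufab1, the mitochondrial acyl carrier protein, which serves fatty acid synthesis as well as complex I, was the subunit at the lowest level, at 9.01 and 7.91 FPKM, a log2 ratio of -0.19. Its level was 0.123 times the median of the 32 subunits in the non-silencing group and 0.113 times in the knockdown group.

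The 4 assembly factors lay below most subunits, at a median of 16.3 and 14.8 FPKM, and held both the lowest and the highest log2 ratio of the 36 genes. Ndufaf3, which acts early in building the ubiquinone-reducing module, was at 20.1 and 16.9 FPKM, the lowest ratio at -0.25. Ndufaf4, its partner in the same step, was at 9.88 and 10.7 FPKM, a ratio of 0.12, so that the pair lay on opposite sides of 0. Ndufaf2, a late chaperone related to Ndufa12, was at 23.9 and 27.8 FPKM, the highest ratio at 0.22. Ndufaf1, a factor of the membrane arm, was at 12.5 and 12.7 FPKM. In the ranking of all loci by ratio, 9.08% lay below Ndufaf3 and 92.1% below Ndufaf2, so that neither stood at an end of the distribution.

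**Figure D2:**
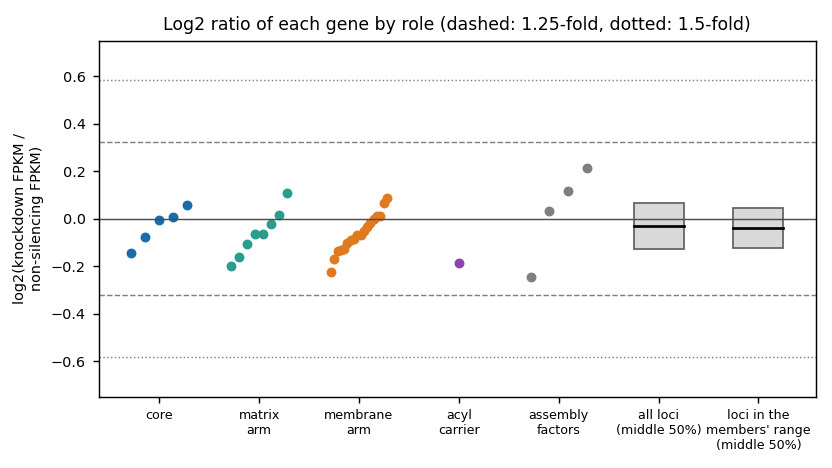
Log2 ratio of knockdown over non-silencing FPKM for each of the 36 genes, by role. Boxes give the middle 50% of the 12616 loci of the background and of the 7552 loci in the members' range of mean FPKM, with the median as a line. All 36 points lie inside the dashed lines, which stand at 20% lower and 25% higher.

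A further list of 16 complex I genes, mostly assembly factors, gave 13 with a locus, and their levels were also low, with a median of 12.9 and 13.3 FPKM. Dmac1, a factor of the distal membrane arm, was at the highest level among them, at 46.9 and 51.7 FPKM. Ndufaf6, an assembly factor, had the lowest log2 ratio at -0.42, from 10.3 and 7.70 FPKM, and was the only gene of that list lower by 20% or more. Nubpl, which delivers iron-sulfur clusters to complex I, had the highest at 0.31, from 2.225 and 2.762 FPKM. Of the 7 mitochondrially encoded subunits, which build the proton-pumping part of the membrane arm, 3 had a locus: mt-Nd2 was at 199.96 and 217 FPKM, mt-Nd4 at 127 and 139 FPKM with mt-Nd4l inside its locus, and mt-Nd5 at 255 and 264 FPKM with mt-Nd6 and mt-Cytb inside its locus. A second row at the mt-Nd5 position was at 133 and 153 FPKM. The log2 ratios of these 3 loci, 0.12, 0.13 and 0.05, were all above 0, while the nuclear subunits had a median of -0.07, which is a difference between few loci without a test.

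The level of a subunit transcript was far from uniform, although the proteins enter the complex in near-equal numbers. The 32 subunits with a locus had a median of 73.1 FPKM in the non-silencing group and 69.9 FPKM in the knockdown group, and 21 of them lay within 2-fold of it in each group. Highest and lowest were 26.7-fold apart in the non-silencing group and 28.98-fold apart in the knockdown group. Ndufc2 was at 3.30 and 3.28 times the subunit median, Ndufa3 at 2.78 and 3.10 times and Ndufa11 at 0.182 and 0.184 times. The order of the genes was nearly the same in both groups, and Ndufc2, Ndufa3 and Ndufb2 were the 3 highest and Ndufaf1, Ndufaf4 and Ndufab1 the 3 lowest in each.

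Among the 32 subunits, the lowest levels were found in transcripts that have copies elsewhere in the genome. Each principal transcript was divided into all windows of 50 bases, the length of a read, and each window was looked for in the annotated transcripts of genes elsewhere in the genome. In 15 of the 36 genes no window was found elsewhere with up to 2 mismatches. In Ndufs3 74.5% were found with up to 2 mismatches and 35.8% exactly. The share found exactly was 37.0% in Ndufb4, 31.1% in Ndufs5, 26.2% in Ndufa12, 14.6% in Ndufs6, 12.3% in Ndufab1 and 7.86% in Ndufa11, and in each of these genes the leading copy was annotated as a processed pseudogene, a copy of an mRNA set back into the genome. All shares are counted over the annotated transcript. The loci of Ndufab1 (overlap 0.838) and Ndufb2 (overlap 0.637) leave out part of the 3′ end of the gene, and the share over the measured part was not determined. The 20 subunits without an exact window elsewhere lay between 42.8 and 241 FPKM in the non-silencing group, a 5.62-fold range with a median of 92.9 FPKM, while the 12 with any had a median of 51.7 FPKM and a 19.4-fold range. Every one of the 5 subunits at the lowest level had more than 5% of its windows exactly elsewhere, as did 9 of the 32 subunits in all. Shared windows were not confined to low levels. Ndufa7, at 167 FPKM in the non-silencing group, had 37.4% elsewhere with up to 2 mismatches and 1.88% exactly. Ndufb3 (66.1 FPKM) had 6.72% exactly and Ndufc1 (112 FPKM) 5.25%. Windows of Ndufc1 were met, with up to 2 mismatches, in 2072 other genes, 1535 of them protein-coding, and so not in 1 copy of the gene alone. The assembly factors at low levels, Ndufaf1 and Ndufaf4, had no exact window elsewhere. None of the leading copies that held more than 10% of the windows of a gene had a locus of its own in the table, and the sources used here do not say how reads that match several places were divided. The part of the copies in the low levels was not tested.

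To show how close the copies are, a coding stretch is given for each of those 5 subunits, read from the GENCODE M21 transcript 5′ to 3′. Capitals mark bases that the leading copy also has at the aligned place, and lower case marks bases that it does not. The copies are Gm4459 for Ndufab1 (chr7:139659688-139660155), Ndufa11b for Ndufa11 (chr16:22053510-22053933), BC002163 for Ndufs5 (chr16:42955631-42955949), Ndufb4c for Ndufb4 (chr15:73809507-73809896) and Gm12251 for Ndufs3 (chr11:58392769-58393560).
Ndufab1: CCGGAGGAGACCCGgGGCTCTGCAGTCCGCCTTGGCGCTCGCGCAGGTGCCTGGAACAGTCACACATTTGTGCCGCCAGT
Ndufa11: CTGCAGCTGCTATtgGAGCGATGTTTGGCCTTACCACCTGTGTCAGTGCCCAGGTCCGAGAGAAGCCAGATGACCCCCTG
Ndufs5: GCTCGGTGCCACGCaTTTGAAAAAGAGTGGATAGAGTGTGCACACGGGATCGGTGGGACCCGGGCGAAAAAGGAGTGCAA
Ndufb4: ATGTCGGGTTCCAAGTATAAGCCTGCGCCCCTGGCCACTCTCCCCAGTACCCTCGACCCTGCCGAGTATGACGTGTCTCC
Ndufs3: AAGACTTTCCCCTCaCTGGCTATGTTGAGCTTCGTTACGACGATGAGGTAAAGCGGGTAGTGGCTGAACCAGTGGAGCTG

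The stretches begin at coding base 123 of Ndufab1, 191 of Ndufa11, 91 of Ndufs5, 1 of Ndufb4 and 596 of Ndufs3, and each is 80 bases long. The longest run of identical coding bases was 331 for Ndufab1, 79 for Ndufa11, 213 for Ndufs5, 179 for Ndufs3 and 387 for Ndufb4, which is the whole coding sequence, so a read from inside such a run cannot be placed by its letters alone.

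**Figure D3:**
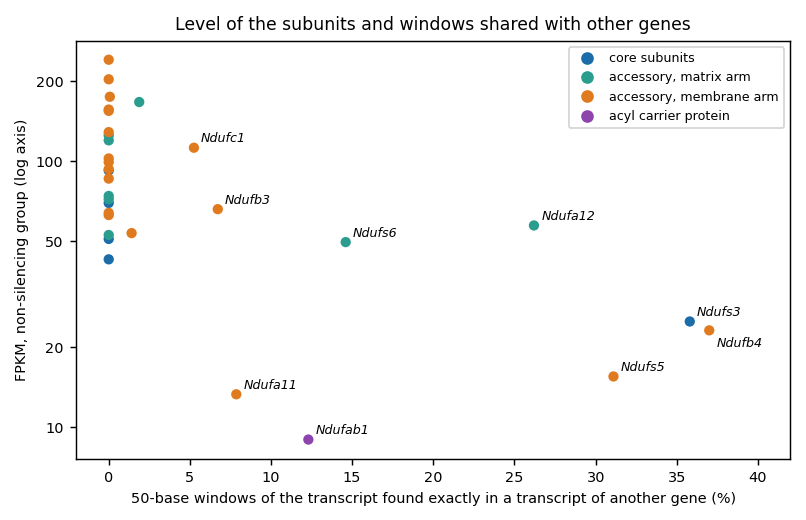
Level in the non-silencing group (FPKM, log axis) of the 32 subunits against the percentage of their 50-base windows that a transcript of another gene holds exactly. Points at 0% lie at 42.8 FPKM or above, and the 5 lowest points, Ndufab1, Ndufa11, Ndufs5, Ndufb4 and Ndufs3, all lie to the right of 5%.

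The transcripts of these genes are short, and FPKM is set per length. The principal transcripts of all 39 genes had a median of 908 bases and 4 exons, against 2547 bases and 7 exons over 21866 protein-coding genes, and ran from 419 bases (Ndufa1) to 4371 bases (Ndufb2). Across the 36 genes the mean level and the transcript length had a Pearson r of -0.32 (Spearman rho -0.32) on log2 scales, and the log2 ratio and the length one of -0.002. These are annotated lengths, and the transcript models behind the FPKM values can differ from them. The Ndufb2 locus ends at chr6:39599471 and the gene at 39603382. The Ndufab1 locus starts at chr7:122088044 and the gene at 122085403. The 36 genes lie on 15 chromosomes, 1 of them, Ndufa1, on X. Small RNA genes lie inside the loci of Ndufv2 (Gm23264), Ndufs1 (Gm24557) and Ndufa10 (Mir6900).

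Set beside the lists of the other respiratory complexes, the complex I subunits had a median above that of complex II and below the rest. The complex II list, however, holds the assembly factors Sdhaf2 (12.1 and 12.5 FPKM), Sdhaf3 (8.47 and 7.80 FPKM) and Sdhaf4 (38.7 and 39.5 FPKM). Its subunits Sdha (55.4 and 53.9 FPKM), Sdhd (70.3 and 70.3 FPKM), Sdhc (98.6 and 98.5 FPKM) and Sdhb lay higher. With subunits alone on both sides, complex I would not stand above complex II. The median of complex II genes was 55.4 and 53.9 FPKM (7 of 8 with a locus), that of complex III 91.0 and 89.1 FPKM (9 of 9), that of complex IV 189 and 187 FPKM (10 of 11) and that of ATP synthase 223 and 217 FPKM (12 of 17 with a mean of at least 1). The median log2 ratios were 0.001, -0.04, -0.05 and -0.04 in this order, beside -0.07 for the complex I subunits, and no gene of these lists with a mean of at least 1 FPKM was lower by 20% or higher by 25%. In complex II, the other entry of electrons to ubiquinone, the iron-sulfur subunit Sdhb was the highest at 99.98 and 100.8 FPKM, the factor Sdhaf3 had the lowest ratio at -0.12 and Sdhaf2 the highest at 0.05. In complex III, Uqcr10 was the highest at 242 and 216 FPKM and also had the lowest ratio at -0.16, and Cyc1, the cytochrome c1 subunit, had the highest at 0.19. In complex IV, Cox4i1 was the highest at 479 and 451 FPKM, Cox5b had the lowest ratio at -0.16 and Cox7c the highest at 0.21. In ATP synthase, Atp5k was the highest at 594 and 533 FPKM, Atp5l had the lowest ratio at -0.30 and Atp5mpl the highest at 0.12. A second row at the Atp5b position was at 227 and 382 FPKM, beside the row at 548 and 530 FPKM that stood for the gene.

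**Figure D4:**
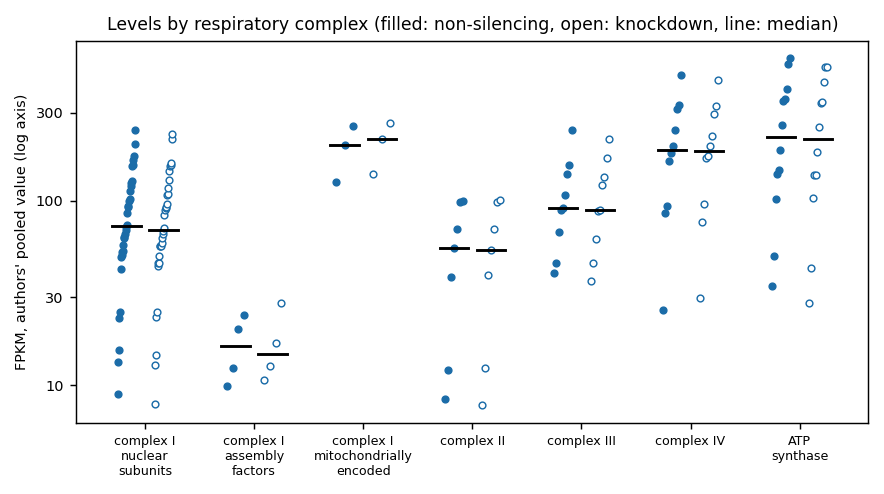
FPKM (log axis) of the nuclear complex I subunits and assembly factors, the mitochondrially encoded complex I loci and the genes of complexes II, III and IV and ATP synthase. The complex II points include the assembly factors Sdhaf2, Sdhaf3 and Sdhaf4. Filled points are the non-silencing group, open points the knockdown group and lines the medians, which for complex I subunits lie at 73.1 and 69.9 FPKM.

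Genes that supply or control complex I were also looked at. Among 14 genes of iron-sulfur cluster and flavin supply, 13 had a locus, with a median ratio of -0.03. Flad1, which makes FAD, was at 14.2 and 27.8 FPKM, a log2 ratio of 0.97 and the only gene of the list 1.5-fold higher. Iscu, the scaffold on which clusters are built, had the lowest ratio at -0.36, from 10.7 and 8.36 FPKM, and the Nfs1 locus, which also holds Romo1, the highest level at 107 and 97.3 FPKM. A second row at the Nfs1 position was at 9.86 and 10.0 FPKM. Among 12 regulators of mitochondrial gene expression, 10 had a locus and 9 a mean of at least 1. Esrra, a nuclear receptor of oxidative metabolism, was at 46.3 and 70.7 FPKM, a ratio of 0.61, but its locus also holds Trmt112, and 2 further rows at its position were at 18.4 and 14.2 FPKM and at 16.1 and 15.5 FPKM. Ppargc1a, a coactivator of mitochondrial genes, was at 1.62 and 2.10 FPKM. The locus of Gabpa, an ETS factor, also holds Atp5j, and its position had rows at 85.1 and 90.6 FPKM and at 19.7 and 20.3 FPKM. Rows were matched by position alone, so which of them is Gabpa was not determined. Nrf1 was at 15.2 and 14.7 FPKM and Yy1 at 28.0 and 25.5 FPKM, the lowest ratio of the list at -0.13. Of the alternative dehydrogenases that feed ubiquinone, 6 of 7 were at a mean of at least 1 and all 6 ratios were below 0, from -0.24 for Etfb, which had the highest level at 30.8 and 26.1 FPKM in a locus that also holds Gm45233, to -0.07 for Etfa.

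The promoters of the members were read from RefSeq (GRCm38.p6, 250 bases before to 50 after the start), which gave 36 of the 39 genes, without Ndufs1, Ndufa2 and Ndufb9. They were rich in G and C, with a median of 59.3% and 20 CG pairs, against 52.7% and 7 over 27025 promoters. Motifs were searched as exact letters on both strands, and each promoter was counted once for a motif. None of the motifs contains another. Of the motifs of factors known to drive respiratory genes, AAGATGGCG (YY1) stood in 5 of 36 (13.9%, against 1.49% of all promoters), GCGCATGC (part of the NRF1 site) in 4 (11.1%, against 2.80%) and CCGGAAG (ETS factors such as GABPA) in 5 (13.9%, against 9.12%). At least 1 of these 3 stood in 14 of 36 (38.9%, against 12.5%). The part of the higher GC content in these shares was not tested. CCAAT stood in 36.1% (37.9% of all promoters) and TATAAA in 11.1% (14.2%). The E-boxes, the class of site that bHLH factors such as NEUROD2 bind, were at CAGATG in 6 of 36 (16.7%, against 17.2%) and at CAGCTG in 4 (11.1%, against 16.1%). A match is a description of letters and not a bound site.

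The YY1 motif is shown for the 5 genes that have it, since it stood at the same place in each: it began between base 23 and base 36 of the transcribed part, on the strand of the gene, and in 5 of 5 its ATG was the annotated start codon. Capitals mark the motif.
Ndufs7 (chr10:80249463-80249492, + strand): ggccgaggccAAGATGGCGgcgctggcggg
Ndufs4 (chr13:114388045-114388074, - strand): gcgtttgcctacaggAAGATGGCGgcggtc
Ndufs6 (chr13:73328433-73328462, - strand): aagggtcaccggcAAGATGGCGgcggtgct
Ndufa9 (chr6:126849096-126849125, - strand): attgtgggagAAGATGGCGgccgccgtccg
Ndufc1 (chr3:51408914-51408943, - strand): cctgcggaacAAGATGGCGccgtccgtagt

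These 5 genes serve different parts of the complex, and those with a locus were at 52.9 and 57.1 FPKM (Ndufs4), 49.7 and 50.2 FPKM (Ndufs6), 74.1 and 70.8 FPKM (Ndufa9) and 112 and 118 FPKM (Ndufc1). Their median log2 ratio was 0.04, beside -0.07 for the members without the motif, again without a test.

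The NRF1 part-site is shown in the same way, on the strand that reads it as spelled, for the 4 genes that have it. Where a promoter holds more than 1, the occurrence farthest upstream is shown.
Ndufa6 (chr15:82354356-82354385, + strand): ggctctgcaatGCGCATGCtctaccgcgga
Ndufa8 (chr2:36049328-36049357, + strand): cggtaccatctGCGCATGCgtctccagcga
Ndufa11 (chr17:56717691-56717720, + strand): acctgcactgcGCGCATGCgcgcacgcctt
Ndufaf4 (chr4:24897959-24897988, + strand): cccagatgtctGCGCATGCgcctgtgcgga

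Their levels ran from 9.88 FPKM (Ndufaf4) to 125 FPKM (Ndufa6) in the non-silencing group, so the motif was found at low and at high levels.

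Ndufa8, a cysteine-rich subunit of the intermembrane-space side, had the most E-boxes, with 3. The 250 bases upstream of its start are shown (chr2:36049339-36049588, - strand), with both kinds of E-box and the reverse complement of the NRF1 part-site in capitals. The last E-box begins at the final base shown and runs into the transcribed part.
Ndufa8: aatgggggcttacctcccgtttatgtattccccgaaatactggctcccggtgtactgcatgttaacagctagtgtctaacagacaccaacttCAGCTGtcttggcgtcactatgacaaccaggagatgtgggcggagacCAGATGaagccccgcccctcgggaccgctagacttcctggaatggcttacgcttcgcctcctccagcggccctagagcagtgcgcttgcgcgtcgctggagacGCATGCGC

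Ndufa8 was at 62.8 and 57.2 FPKM, a log2 ratio of -0.14.

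Of the 39 genes, 16 start within 1000 bases of a protein-coding gene on the other strand, and 11 of these pairs had a level on both sides. The share over all protein-coding genes was not determined, so the count cannot be called high or low. The signs of the ratios were the same in 6 of the 11 pairs, among which Asb15 and Morn5, the partners of Ndufa5 and Ndufa8, were below 1 FPKM. Ndufs1 and Eef1b2, an elongation factor gene whose start overlaps it, were at 42.8 and 44.6 FPKM and at 163 and 150 FPKM. The start of Ndufa11 overlaps that of Vmac, which was at 10.4 and 17.8 FPKM, a log2 ratio of 0.77, while Ndufa11 was at -0.05. Ndufb9 and Tatdn1, 18 bases apart, had ratios of -0.10 and -0.07, and Ndufaf2 and Ercc8, 108 bases apart, 0.22 and -0.10. A shared start region was therefore found with like and with unlike ratios.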

How the data were processed

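By the submitters' processing notes and the methods, the authors aligned the reads to mm10 (TopHat), built transcripts (Cufflinks) and set the groups against each other (Cuffdiff). The sources used here give no versions or settings. The deposited table holds 1 FPKM value for each group and locus, 4928 of whose 32357 loci had cells that a spreadsheet had turned into times. The possible numbers behind each such cell were listed, and the pair was kept whose log2 ratio matched the deposited log2 fold change within 2e-05. The authors' log2 fold change served for this check sum only. The other columns of their comparison hold a statistic, p-values, q-values and a call, and were not used. In a simulation on 10045 loci with altered cells, 10044 were restored, none wrongly. In the table itself 101 loci were not restored, and 8 of the 36 members have restored cells.

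Loci carry no gene names and were matched by position to GENCODE M21 (GRCm38). Where several rows had the same position, the row with the higher mean FPKM stood for the gene. Log2 ratios were computed from the FPKM values with no pseudocount. The columns used hold a single pooled value for each group, so no test was run and no SD over libraries, p-value or interval is given, and the labels do not say whether libraries came from separate cultures. Members and lists were chosen with earlier results of these data known. Named are every core subunit, in each role the genes at the ends of level and ratio, genes with a shared locus and, in the other lists of respiratory and supply genes, the gene at the highest level and, at a mean of at least 1 FPKM, the ends of ratio and any gene 1.5-fold apart. Further members are named so that all are accounted for, and their values had been seen. An item of the further complex I list is not reported here. Computations used Python 3.11.15, pandas 2.3.3, numpy 2.4.6 and matplotlib 3.10.9. The search of windows for copies was tested on simulated sequences.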

Additional observations from a re-analysis of the deposited data

How the results depend on the processing

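No paired analysis was possible because the table holds 1 pooled value for each group, and single libraries could not be left out for the same reason. Of 100 values recomputed under 9 alternatives (a stricter overlap of 0.8, no filter on the mean, a pseudocount of 1, the median of all loci subtracted, cells as written only, unshared loci only, the row with the highest or, added after seeing the data, the lower mean at a shared position, and, also added, genes without an exact window elsewhere), 95 stayed close to those reported (counts and levels within 1.5-fold, interquartile ranges of the log2 level within the log2 of 1.5, ratios within 0.10, their standard deviation over the genes, on the log2 scale) and none changed sign. No gene was lower by 20% or higher by 25% under any of them, and the median log2 ratio kept its sign, although it went from -0.06 to -0.03 with the median of all loci subtracted. Dropping the filter on the mean and taking the highest row could not change any value, yet both count among the 95. Every member passed that filter, with a lowest mean of 8.46 FPKM, and the main setting already took the higher row. The highest ratio, 0.22, was 0.12 at an overlap of 0.8 (31 genes) and 0.11 with cells as written only (28 genes), neither of which holds Ndufaf2. The interquartile range of the log2 level in the non-silencing group, 1.61, was 2.26 with unshared loci (33 genes) and 2.27 with the lower row, and in the knockdown group 1.44 became 2.14 with the lower row. Counts were compared as they stand, although the number of genes differs between the alternatives. The main setting had 25 of 36 ratios below 0. With cells as written only, 22 of 28 were, a count that stayed close. Without genes that have an exact window elsewhere, 16 of 24 were, a count that moved, and the interquartile range of the log2 level was 1.21 and 0.99. With single pooled values, differences of the size seen here could not be set against the spread between libraries.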
